A study of Mus musculus with 12 samples.

Results

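Inner root sheath and companion layer keratins are the type I genes Krt25, Krt26, Krt27 and Krt28 and the type II genes Krt71, Krt72, Krt73, Krt74 and Krt75. They were taken by symbol from a table of gene counts, where each of the 9 matched 1 of 46078 identifiers and passed the filter on low counts with 14582 genes. The samples were skin epidermis of newborn mice, 3 mice in each of 4 genotypes. Llgl cKO Trp53 het mice carried K14-Cre with Llgl1/2 flox/flox and Trp53 +/flox, Llgl cKO mice K14-Cre with Llgl1/2 flox/flox, Trp53 het mice K14-Cre with Trp53 +/flox, and control mice K14-Cre alone, so that all 12 animals carried the Cre transgene. K14-Cre is driven by a keratin 14 promoter, which is active in basal keratinocytes of the epidermis and the hair follicle. The study asked how transcripts change with mutation of Llgl1 and Llgl2, homologues of the Drosophila polarity gene lethal giant larvae, with and without loss of an allele of Trp53, which encodes the p53 tumour suppressor.

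The inner root sheath is the rigid sleeve that surrounds and shapes the growing hair, and the companion layer is the thin cell layer between it and the outer root sheath. Keratin filaments are built from a type I and a type II chain, so the sheath needs members of both families. In human follicles K25, K27, K28 and K71 occur in all layers of the inner root sheath, K26, K72 and K73 in its cuticle, and K74 in Huxley's layer, while K75 marks the companion layer. Dominant mutations of Krt71 or Krt25 give mice wavy coats. In the mouse annotation Krt74 is a transcribed unitary pseudogene, so its counts report transcription and not a keratin chain. In whole epidermis, fewer sheath cells and less RNA per sheath cell cannot be told apart.

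The genes lie on the minus strand in both keratin clusters of the mouse genome (GRCm38). Krt25 (99315516 to 99322951), Krt26 (99328550 to 99337966), Krt27 (99345565 to 99351104) and Krt28 (99364872 to 99374903) are consecutive among the tested keratin genes on chromosome 11. Krt71 (101733949 to 101743109), Krt74 (101754259 to 101763504), Krt72 (101776172 to 101786460) and Krt73 (101793308 to 101802346) are likewise consecutive on chromosome 15, and Krt75 (101563345 to 101573904) stands apart from them. Counting rules for shared sequence were not given in the sources used here. Of all stretches of 50 bases in the exons, 11.1% in Krt27 and 10.9% in Krt25 also occur in another gene. In the other 7 the share is 2.43% or less. Krt27 shares stretches with Krt25 and Krt28, and Krt25 shares them with Krt15, Krt27 and Krt28. How much each pair shares was not counted. In this respect the counts of Krt25 and Krt27 are the least certain. An annotated gene, Gm44460, overlaps 129 exon bases of Krt75 on the opposite strand.

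Promoters are shown for a type I and a type II gene whose transcript fell in the comparisons that follow, Krt27 and Krt71, and for Krt28 and Krt73 of the same clusters, whose average Llgl effects were smaller and did not pass. Each is the 250 bases before the RefSeq start (GRCm38.p6, minus strand, 5′ to 3′). Capitals mark AGATAA, a match to the core bound by GATA factors, and TATAAA, a match to the TATA box sequence.
Krt27 chr11:99351119-99351368: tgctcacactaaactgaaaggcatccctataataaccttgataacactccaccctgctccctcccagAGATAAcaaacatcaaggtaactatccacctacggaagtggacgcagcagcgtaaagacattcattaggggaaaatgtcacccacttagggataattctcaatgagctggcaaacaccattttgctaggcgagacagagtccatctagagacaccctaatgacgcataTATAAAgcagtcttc
Krt28 chr11:99374904-99375153: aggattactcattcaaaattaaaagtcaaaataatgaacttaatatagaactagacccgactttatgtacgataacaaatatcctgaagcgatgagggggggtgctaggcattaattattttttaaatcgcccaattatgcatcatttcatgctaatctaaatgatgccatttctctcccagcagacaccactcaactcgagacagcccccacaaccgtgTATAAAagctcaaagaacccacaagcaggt
Krt71 chr15:101743098-101743347: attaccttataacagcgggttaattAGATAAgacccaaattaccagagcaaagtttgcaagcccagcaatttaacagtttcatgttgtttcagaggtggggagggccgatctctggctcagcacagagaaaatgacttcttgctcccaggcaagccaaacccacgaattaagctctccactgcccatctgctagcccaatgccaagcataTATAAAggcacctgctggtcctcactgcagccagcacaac
Krt73 chr15:101802361-101802610: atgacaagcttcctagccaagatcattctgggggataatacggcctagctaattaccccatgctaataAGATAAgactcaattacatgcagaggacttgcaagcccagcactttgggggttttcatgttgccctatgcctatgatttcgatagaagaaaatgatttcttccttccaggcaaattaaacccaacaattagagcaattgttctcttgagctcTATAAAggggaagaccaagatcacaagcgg

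The promoters were searched on both strands, and 8 of the 9 genes had an entry. AGATAA stood in 4 of the 8 windows (Krt25, Krt27, Krt71 and Krt73), against 9.99% of 32851 promoters of the same length. TATAAA stood in 7 of the 8, in every gene but Krt75, against 12.4% of all promoters. A match began 30 bases before the start in Krt25, Krt26, Krt28 and Krt73, 40 bases in Krt71 and 15 in Krt27. The Krt72 match was the reverse complement, 203 bases before the start, so a match need not be a working TATA box. TAATT, the core of many homeobox sites, stood in the same 7, against 25.0% of all promoters, and its reverse complement can overlap it. CTTTGA, a core bound by Lef and Tcf factors, stood in the Krt28 window alone, against 13.8%. The longest run shared by any pair of windows was ttgcaagcccagca, 14 bases that begin 196 bases before the start of Krt71 and 154 before that of Krt73. A match is a description of the sequence and no evidence of binding. AGATAA occurs both in genes that fell (Krt27, Krt71) and in Krt73, whose average Llgl effect did not pass.

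The libraries held 6738720 to 14509507 counts. Llgl2 was at 6.12 to 12.4 CPM (the count scaled to the size of the library) in both Llgl cKO genotypes, against 65.4 to 109.9 CPM in the other 6 libraries, while Llgl1 was at 187 to 280 CPM in the Llgl cKO genotypes and 115 to 173 CPM in the others. Trp53 stood at 98.3, 67.8 and 65.9 CPM in Llgl cKO Trp53 het libraries 1 to 3, 112 to 122 CPM in Llgl cKO, 61.8, 60.9 and 114.8 CPM in Trp53 het libraries 1 to 3, and 109 to 131 CPM in control. The library labelled Trp53 het 3 was thus at the control level of Trp53. Llgl cKO Trp53 het 1 lay between the other libraries of its group and those of Llgl cKO and control. Markers of epidermis (Krt5, Krt14, Krt1, Krt10, Lor, Flg, Ivl and Trp63) summed to 66117 to 122483 CPM in every library, as the tissue label states.

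Sheath keratin transcripts were lowest in all 3 Llgl cKO Trp53 het libraries. Their summed level was 435, 100.2 and 104.6 CPM there and 1016, 2924 and 762 CPM in Llgl cKO libraries, against 4102, 3401 and 1747 CPM in Trp53 het and 5009, 3768 and 1243 CPM in control libraries. Llgl cKO Trp53 het lay below every other library, while Llgl cKO overlapped both Trp53 het and control. Replicates varied widely: Llgl cKO 2 was far above the other Llgl cKO libraries, Llgl cKO Trp53 het 1 above its group, and the libraries labelled control 3 and Trp53 het 3 were the lowest of theirs. The 9 genes took 0.00921% to 0.0461% of all counts in Llgl cKO Trp53 het libraries and 0.0741% to 0.317% in Llgl cKO libraries, against 0.186% to 0.380% in Trp53 het and 0.131% to 0.455% in control libraries.

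**Figure D1:**
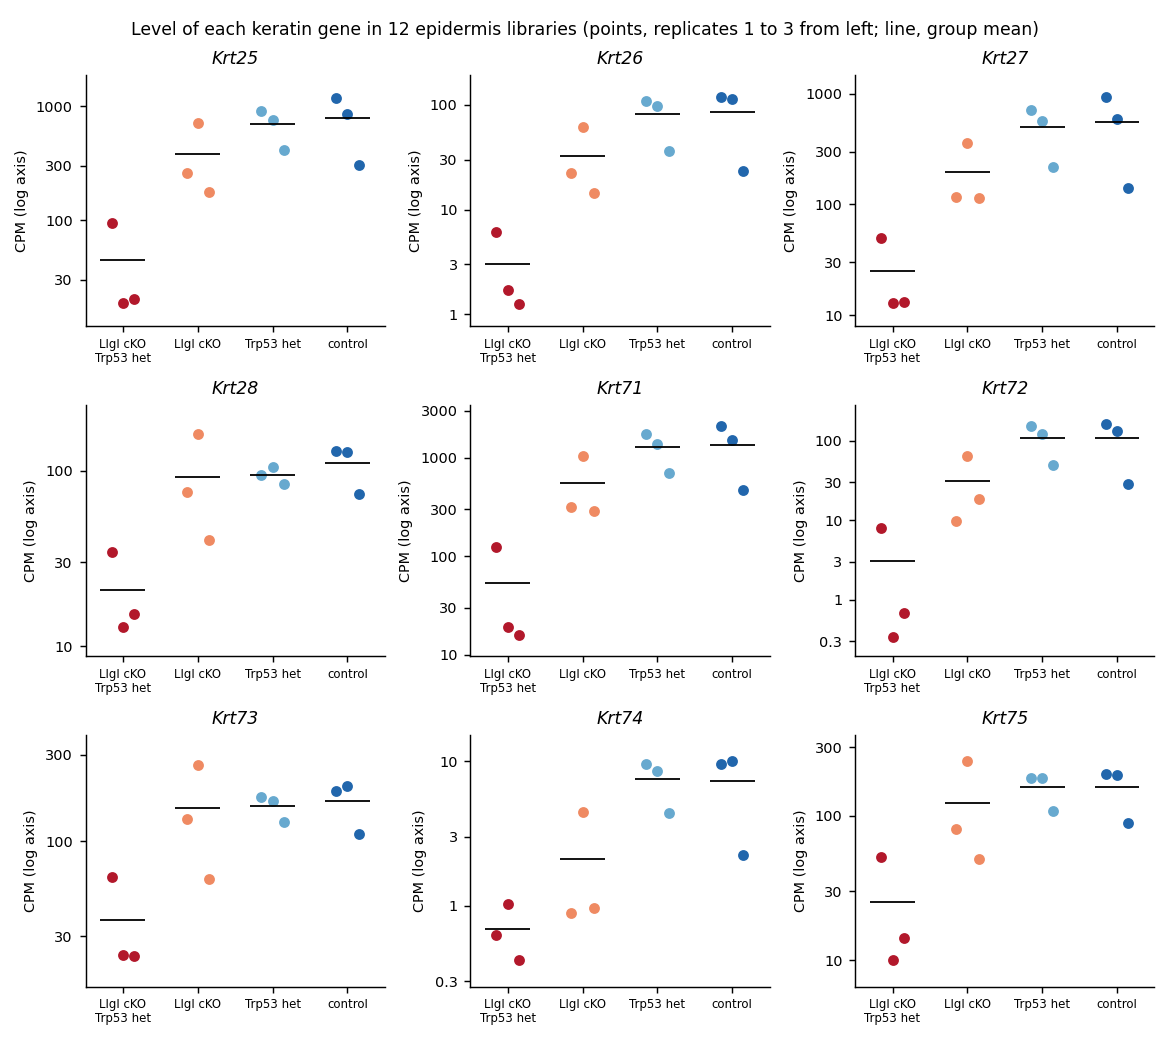
Level of each keratin gene in CPM (log axis, a separate scale per panel) in the 4 genotypes, with points for replicates 1 to 3 from left to right and a line at the group mean. The 3 Llgl cKO Trp53 het points lie below all Trp53 het and control points in each of the 9 panels, and Llgl cKO overlaps control in each.

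Among the type I genes, Krt25, the most abundant of them, had 94.4, 18.8 and 20.4 CPM in Llgl cKO Trp53 het and 259, 718 and 176 CPM in Llgl cKO, against 903, 765 and 410 CPM in Trp53 het and 1187, 857 and 304 CPM in control. Krt27, a partner of the type II sheath keratins in the same layers, had 49.9, 12.8 and 13.2 CPM in Llgl cKO Trp53 het and 115, 361 and 113 CPM in Llgl cKO, against 718, 566 and 216 CPM in Trp53 het and 924, 589 and 142 CPM in control. In both genes the Llgl cKO Trp53 het libraries were below all others, and Llgl cKO 2 was higher than control 3. Krt26, a cuticle keratin in human, had 6.04, 1.71 and 1.26 CPM in Llgl cKO Trp53 het and 22.5, 61.5 and 14.3 CPM in Llgl cKO, against 108.9, 97.8 and 36.4 CPM in Trp53 het and 119, 114 and 23.3 CPM in control. Krt28 had 34.4, 12.9 and 15.2 CPM in Llgl cKO Trp53 het and 75.9, 161 and 40.5 CPM in Llgl cKO, against 94.9, 105.1 and 84.2 CPM in Trp53 het and 129, 129 and 73.4 CPM in control. For Krt28 the highest of the 12 values was that of Llgl cKO 2, above every control.

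Among the type II genes, Krt71 carried the most counts in Llgl cKO, Trp53 het and control. It had 126, 19.1 and 16.0 CPM in Llgl cKO Trp53 het and 320, 1051 and 286 CPM in Llgl cKO, against 1757, 1385 and 710.0 CPM in Trp53 het and 2094, 1539 and 471 CPM in control. Its group means were 53.7 ± 62.6 CPM in Llgl cKO Trp53 het and 552 ± 432 CPM in Llgl cKO, against 1284 ± 531 CPM in Trp53 het and 1368 ± 825 CPM in control (SD, n = 3 each), so the SD exceeded the mean in the first group. Krt72, a cuticle keratin in human, had 8.08, 0.342 and 0.670 CPM in Llgl cKO Trp53 het and 9.76, 64.2 and 18.4 CPM in Llgl cKO, against 153, 122 and 50.1 CPM in Trp53 het and 161, 134 and 28.8 CPM in control. Those 3 Llgl cKO Trp53 het libraries together held 115 Krt72 counts, and their values spread over 4.57 log2 units, more than for any other of the 9 genes in any group. Krt73, also of the cuticle in human, had 63.7, 23.5 and 23.2 CPM in Llgl cKO Trp53 het and 133, 263 and 62.2 CPM in Llgl cKO, against 176, 167 and 128 CPM in Trp53 het and 189.7, 203 and 109.1 CPM in control. As for Krt28, Llgl cKO 2 had the highest Krt73 value of all 12 libraries.

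The pseudogene Krt74 was the scarcest, with 0.628, 1.02 and 0.419 CPM in Llgl cKO Trp53 het and 0.893, 4.45 and 0.969 CPM in Llgl cKO, against 9.60, 8.58 and 4.37 CPM in Trp53 het and 9.65, 10.03 and 2.26 CPM in control. The Llgl cKO Trp53 het values rest on 25 counts over 3 libraries, and they overlap those of Llgl cKO. Krt75, the companion layer keratin, had 52.2, 9.99 and 14.2 CPM in Llgl cKO Trp53 het and 80.9, 239 and 50.1 CPM in Llgl cKO, against 183, 184 and 108.0 CPM in Trp53 het and 195, 193 and 89.4 CPM in control. Its Llgl cKO Trp53 het and Llgl cKO values overlapped by a single pair, at 52.2 and 50.1 CPM.

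The average Llgl effect, the mean of the log2 differences Llgl cKO Trp53 het minus Trp53 het and Llgl cKO minus control, was tested with edgeR's quasi-likelihood test and Benjamini-Hochberg adjustment over 14582 genes. The call was an adjusted p below 0.05, and 6 of the 9 sheath keratins fell, where 2.15% of all genes fell. Krt72 fell by 3.46 on the log2 scale (SE 0.72, adjusted p = 0.0271), 11.04-fold, and Krt26 fell by 3.05 (SE 0.57, adjusted p = 0.0182), 8.31-fold. Krt71 fell by 2.94 (SE 0.62, adjusted p = 0.0289), Krt27 fell by 2.89 (SE 0.57, adjusted p = 0.0228), Krt74 fell by 2.59 (SE 0.51, adjusted p = 0.0218) and Krt25 fell by 2.49 (SE 0.54, adjusted p = 0.0315). The other 3 had smaller estimates and did not pass: -1.22 for Krt28 (adjusted p = 0.0823), -1.11 for Krt73 (adjusted p = 0.129) and -1.497 for the companion layer gene Krt75 (adjusted p = 0.121).

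The median of the 9 log2 estimates of the average Llgl effect was -2.59, against -0.00 over all genes tested. The 6 libraries of the Llgl cKO genotypes and the other 6 overlapped in all 9 genes, where 1.21% of all genes were lower without overlap. With 1 library left out, 0 of the 9 passed without Llgl cKO Trp53 het 2 or 3, Llgl cKO 1 or control 2, 1 without Trp53 het 2, 2 without Llgl cKO 3 or Trp53 het 1, and 3 without control 1, while leaving out Llgl cKO Trp53 het 1 gave 8 and leaving out Llgl cKO 2 gave 9. With no low-count filter 1 of the 9 passed (367 of all genes, against 485 with the filter), and with DESeq2 8 passed (1034 of all genes). Every one of the 9 estimates was below 0 in each of these fits.

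**Figure D2:**
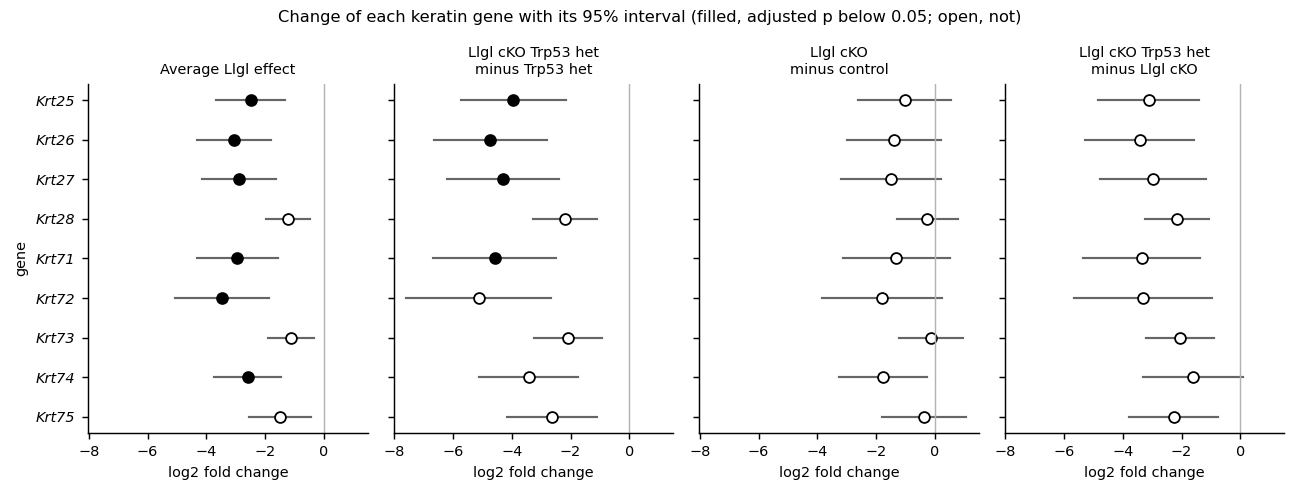
Log2 fold change of each keratin gene with its 95% interval in 4 comparisons, from edgeR's quasi-likelihood fit to 12 libraries; filled points have an adjusted p below 0.05. Filled points number 6 for the average Llgl effect, 4 for Llgl cKO Trp53 het minus Trp53 het, and 0 for Llgl cKO minus control and for Llgl cKO Trp53 het minus Llgl cKO.

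Between the groups labelled as heterozygous for Trp53, the genes that fell were Krt25, Krt26, Krt27 and Krt71. In Llgl cKO Trp53 het against Trp53 het, 4 of the 9 fell, where 0.919% of all genes fell, and the median log2 estimate was -3.96, against 0.00 over all genes. Krt26 fell by 4.73 (SE 0.88, adjusted p = 0.0365), 26.6-fold, Krt71 fell by 4.58 (SE 0.95, adjusted p = 0.0476), 23.9-fold, Krt27 fell by 4.30 (SE 0.87, adjusted p = 0.0457) and Krt25 fell by 3.96 (SE 0.81, adjusted p = 0.0465). Krt72 had the lowest estimate of the 9, -5.12 (SE 1.12), and did not pass (adjusted p = 0.0535). Krt74 was at -3.42, Krt75 at -2.63, Krt28 at -2.18 and Krt73 at -2.09, with adjusted p of 0.0559 to 0.0986 in edgeR. All 9 genes were lower without overlap, as were 10.7% of all genes.

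The 4 adjusted p that passed for Llgl cKO Trp53 het against Trp53 het lay close to the threshold. The count was 0 without Llgl cKO Trp53 het 2 or 3 (44 and 24 of all genes). It was also 0 without Trp53 het 1 or 2 (24 and 32) or control 1 or 2 (89 and 50). It was 1 without Llgl cKO 1 (162 of all genes) and 2 without Llgl cKO 3 (137). It was 6 without the library labelled Trp53 het 3 (322 of all genes) and 7 without Llgl cKO 2 or control 3 (193 and 322). It was 8 without Llgl cKO Trp53 het 1 (170). It was 0 with no low-count filter (161 of all genes passed, against 198 with the filter), 2 when only these 2 groups were fitted (117 of all genes) and 9 with DESeq2 (722 of all genes). With replicate number as a block it was 9 (376 of all genes). Deviations of same-numbered libraries of these 2 groups from their group means correlated across genes at only -0.10, 0.16 and 0.17.

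Against control, 5 of the 9 fell in Llgl cKO Trp53 het, where 0.905% of all genes fell, and all 9 were lower without overlap, as were 9.20% of all genes. Krt26 fell by 4.81 (SE 0.88, adjusted p = 0.0331), Krt71 fell by 4.67 (SE 0.96, adjusted p = 0.0456), Krt27 fell by 4.44 (SE 0.87, adjusted p = 0.0430), Krt25 fell by 4.13 (SE 0.82, adjusted p = 0.0430) and Krt28 fell by 2.40 (SE 0.50, adjusted p = 0.0471). The estimates of Krt72 (-5.12), Krt74 (-3.37), Krt75 (-2.64) and Krt73 (-2.18) had adjusted p of 0.0544 to 0.109 in edgeR. The count was 0 without Llgl cKO Trp53 het 2 or 3 (37 and 27 of all genes). It was also 0 without Trp53 het 2 (43) or control 1 or 2 (31 and 25). It was 1 without Llgl cKO 1 (155 of all genes). It was 3 without Llgl cKO 3 (135), Trp53 het 1 (127) or the library labelled Trp53 het 3 (243). It was 7 without Llgl cKO 2 (185 of all genes), and 8 without Llgl cKO Trp53 het 1 or control 3 (145 and 351). It was 0 with no low-count filter (142 of all genes, against 182 with the filter), 0 when only these 2 groups were fitted (49 of all genes) and 9 with DESeq2 (644 of all genes). With replicate number as a block it was 9 (347 of all genes), where the same correlations of deviations were -0.13, -0.12 and 0.18. This comparison shares the Llgl cKO Trp53 het libraries with the preceding one and is no separate evidence.

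In mice without the floxed Trp53 allele, 0 of the 9 passed between Llgl cKO and control, where 0.226% of all genes passed in either direction, and the groups overlapped in every gene, where 5.31% of all genes were lower without overlap. Estimates were below 0 for all 9, from -1.80 (95% interval -3.84 to 0.23) for Krt72 to -0.13 (-1.23 to 0.97) for Krt73, with adjusted p of 0.676 to 0.996 in edgeR. At an unadjusted p below 0.05 the counts were 1 of the 9, Krt74 (-1.77, interval -3.26 to -0.28), and 920 of all genes. DESeq2 called 0 of the 9 and 114 of all genes. The intervals of Krt26 (-2.98 to 0.22) and Krt27 (-3.18 to 0.21) reached to large decreases, so a p that missed the threshold does not show equal levels. Without Llgl cKO 3 the estimates of Krt28, Krt73 and Krt75 were 0.11, 0.25 and 0.02, and without control 2 that of Krt73 was 0.04.

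Llgl cKO Trp53 het was also lower than Llgl cKO in every estimate, from -3.43 for Krt26 to -1.604 for Krt74, yet 0 of the 9 passed, as did 0 of all genes (edgeR adjusted p 0.668 to 0.989 for the 9; percent called 0). At an unadjusted p below 0.05 the counts were 8 of the 9 and 747 of all genes, and DESeq2 called 4 of the 9 and 52 of all genes. The genes Krt25, Krt26, Krt27, Krt28, Krt71 and Krt72 were lower without overlap, 6 of the 9, as were 5.13% of all genes.

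The Trp53 het genotype alone had small estimates with wide intervals. Between Trp53 het and control 0 of the 9 passed in edgeR, 0 at an unadjusted p below 0.05 and 0 with DESeq2 (percent called among all genes 0, with 63 genes at an unadjusted p below 0.05). Log2 estimates ran from -0.22 for Krt28 (95% interval -1.25 to 0.81) to 0.05 for Krt74 (-1.36 to 1.45), and the 2 groups overlapped in every gene, where 1.52% of all genes were lower without overlap. Whether the Llgl effect differed with Trp53 genotype was tested directly, as the effect in the groups labelled Trp53 +/flox minus that in the groups without that allele. The interaction estimates of the 9 ran from -3.35 for Krt26 (95% interval -5.77 to -0.94) to -1.65 for Krt74 (-3.86 to 0.56), and the unadjusted p was below 0.05 for 8. None passed in edgeR (adjusted p = 1.00 for each; percent called among all genes 0, with 428 at an unadjusted p below 0.05), and DESeq2 called 0.

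The share of each gene in the sheath keratin counts is given as a description, without a test of differences between genes. Krt71 made up 21.1 ± 7.03% of the counts of the 9 genes in Llgl cKO Trp53 het and 35.0 ± 3.16% in Llgl cKO mice, against 41.4 ± 1.24% in Trp53 het and 40.2 ± 2.05% in control (SD, n = 3 each). Krt73 made up 20.1 ± 4.76% in Llgl cKO Trp53 het and 10.1 ± 2.62% in Llgl cKO mice, against 5.51 ± 1.603% in Trp53 het and 5.98 ± 2.55% in control. In Llgl cKO Trp53 het 2 and 3, Krt73 at 23.4% and 22.2% took a larger share than Krt71 at 19.1% and 15.3%. Krt28 had 11.8 ± 3.47% in Llgl cKO Trp53 het, against 3.41 ± 1.28% in Trp53 het, and Krt75 had 11.9 ± 1.82% in Llgl cKO Trp53 het, against 5.35 ± 0.866% in Trp53 het.

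The ratio of the chain families is given likewise. Type I counts over type II counts gave 0.837 ± 0.0920 in Llgl cKO Trp53 het and 0.832 ± 0.0333 in Llgl cKO mice, against 0.790 ± 0.0388 in Trp53 het and 0.826 ± 0.0588 in control (SD, n = 3 each), and the 4 ranges overlapped. Genes with smaller estimates were found in both families, Krt28 in type I and Krt73 and Krt75 in type II.

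**Figure D3:**
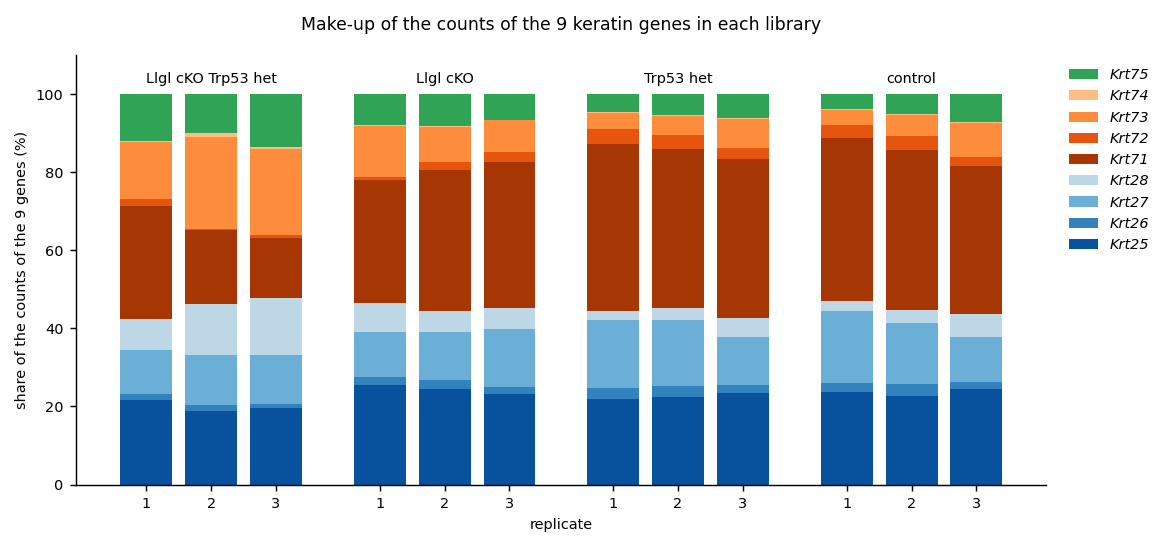
Share of each gene in the summed counts of the 9 keratins, in percent, for each library, with Llgl cKO Trp53 het at the left and control at the right. The Krt71 share is 15.3% to 28.9% in Llgl cKO Trp53 het and 37.9% to 42.8% in Trp53 het and control, and the Krt73 share is 14.6% to 23.4% in Llgl cKO Trp53 het and 3.79% to 8.77% in Trp53 het and control.

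Levels per kilobase of exon allow the genes to be ordered against each other. In control the mean levels were 626 CPM per kb for Krt71, 394 for Krt25, 356 for Krt27, 77.2 for Krt73, 68.0 for Krt28, 54.2 for Krt72, 48.7 for Krt75, 23.3 for Krt26 and 4.44 for Krt74. The ranges of neighbours in this order overlapped between libraries, except that Krt74 (at most 6.09 CPM per kb) lay below Krt26 (at least 6.35). Within each control library, however, Krt71 was above Krt25, Krt25 above Krt27 and Krt27 above Krt73. In control 1 Krt25 and Krt27 were nearly equal, at 596.8 and 596.1. In Llgl cKO Trp53 het the mean levels were 24.6 CPM per kb for Krt71, 22.4 for Krt25, 17.0 for Krt73, 16.3 for Krt27, 12.8 for Krt28, 7.80 for Krt75, 1.52 for Krt72, 0.819 for Krt26 and 0.419 for Krt74, and all neighbours overlapped. By these group means Krt73 stood above Krt27 there, but in Llgl cKO Trp53 het 1 Krt27 was higher, at 32.2 against 29.4. The mean of Krt75 stood above that of Krt72 in both Llgl cKO genotypes and below it in Trp53 het and control. Trp53 het 3 and control 3 went the other way. Krt75 and Krt72 had 33.1 and 25.1 CPM per kb in Trp53 het 3, and 27.4 and 14.4 in control 3.

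The levels of the 9 genes varied together from library to library. Over 12 libraries, Pearson's r of log2 CPM between pairs of them ran from 0.804 to 0.997 with a median of 0.969 over 36 pairs, a description in which all points share the same libraries and genotypes. Among 11567 other genes, those with the profile most like the mean of the 9 were Tgm6, a transglutaminase (r = 0.998), S100a3, a calcium-binding protein of the hair cuticle (r = 0.998), Krtap11-1, a keratin-associated protein (r = 0.992), Prr9 (r = 0.992) and Krt82, a hair cuticle keratin (r = 0.991). Their average Llgl effects on the log2 scale were -2.52 for Tgm6, -2.36 for S100a3, -4.001 for Krtap11-1, -3.29 for Prr9 and -2.77 for Krt82. These genes were chosen for their likeness to the 9 in the same libraries, so the direction of their effects is no separate evidence.

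Other proteins of the inner root sheath did not move as a block. Of 8 genes, 2 fell in the average Llgl effect and the median was -0.15. Tchh, trichohyalin, which fills sheath cells and is cross-linked to their keratin, fell by 2.95 (SE 0.50, edgeR adjusted p = 0.0144), with 68.3 ± 29.3 CPM in Llgl cKO Trp53 het and 462 ± 334 CPM in Llgl cKO, against 1326 ± 613 CPM in Trp53 het and 1425 ± 973 CPM in control (SD, n = 3 each). Padi3, a peptidylarginine deiminase that modifies trichohyalin, fell by 2.15 (SE 0.44, edgeR adjusted p = 0.0245). The other 6, Padi1, Tgm1, Tgm3, Cdsn, Gata3 and Cux1, did not pass; interfollicular epidermis also expresses several of them. Gata3, a transcription factor needed for the inner root sheath, had an estimate of 0.17 (edgeR adjusted p = 0.526).

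Keratins of the hair shaft, the layer inside the sheath, fell alongside. Among type I shaft keratins 7 of 9 fell in the average Llgl effect (median -3.33), with Krt33b at -3.82 (SE 0.65, edgeR adjusted p = 0.0141) and Krt31 at -2.89 (SE 0.51, edgeR adjusted p = 0.0151). Among type II shaft keratins 4 of 5 tested fell (median -2.77), with Krt81 at -3.42 (SE 0.61, edgeR adjusted p = 0.0156) and Krt82 at -2.77 (SE 0.50, edgeR adjusted p = 0.0157). In Llgl cKO Trp53 het against Trp53 het the counts were again 7 of 9 and 4 of 5. Of 13 transcription factors of the hair matrix, the dividing cells that feed sheath and shaft, 0 fell and 1 rose in the average Llgl effect, Lef1, a Wnt effector, at 0.92 (SE 0.19, edgeR adjusted p = 0.0266). Vdr, the vitamin D receptor, had the next smallest p, at -0.54 (SE 0.14, edgeR adjusted p = 0.0571). In Llgl cKO Trp53 het against Trp53 het 1 of the 13 fell, Vdr, which fell by 0.93 (SE 0.19, edgeR adjusted p = 0.0471), and Lef1 at 1.15 did not pass (edgeR adjusted p = 0.0660).

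Outer root sheath and interfollicular transcripts gave few calls. Of 10 outer root sheath genes 0 passed (median -0.06), with Tcf7l1 at 0.51 (edgeR adjusted p = 0.110) and Krt6a at -1.29 (edgeR adjusted p = 0.157), and of 7 interfollicular keratins tested 0 passed (median -0.09), with Krt77 at -1.16 (edgeR adjusted p = 0.0635) and Krt80 at -0.49 (edgeR adjusted p = 0.305). Of 12 identifiers of epidermis markers 1 rose, a minor identifier of Flg, filaggrin, at 0.91 (edgeR adjusted p = 0.0315), and 1 fell, Ivl, involucrin, by 0.93 (edgeR adjusted p = 0.0317). The most abundant Flg identifier averaged 1888 ± 920 CPM in Llgl cKO Trp53 het and 1969 ± 681 CPM in Llgl cKO, against 2730 ± 798 CPM in Trp53 het and 2608 ± 766 CPM in control (SD, n = 3 each). It and the other 3 Flg identifiers tested had estimates of -1.47 to -0.47 that did not pass.

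**Figure D4:**
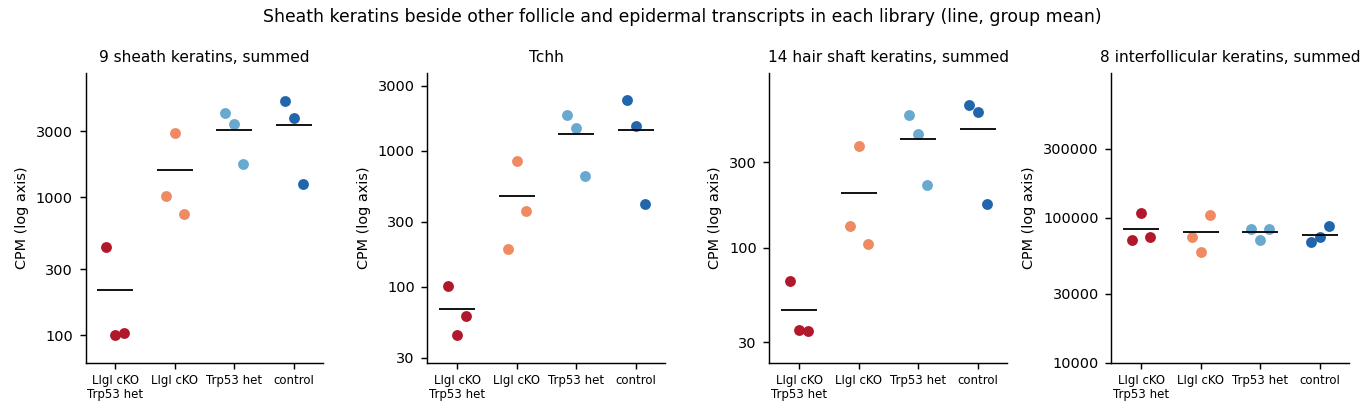
Summed level of the 9 sheath keratins, level of Tchh, and summed levels of 14 hair shaft keratins and 8 interfollicular keratins, in CPM (log axes), per library with a line at the group mean. The first 3 panels are lowest in Llgl cKO Trp53 het, while the interfollicular keratins lie between 58417 and 108276 CPM in every library.

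Sheath, shaft and other keratin genes are neighbours in both clusters, with shaft genes classed here by their annotation names. Of the tested keratin genes on chromosome 11, 3 of 4 sheath and 7 of 9 shaft genes fell in the average Llgl effect, against 0 of 13 other keratins. On chromosome 15 these counts were 3 of 5 sheath, 5 of 6 shaft and 0 of 13 other keratins. Krt13, named because it was the only keratin that rose, stood at 2.105 (edgeR adjusted p = 0.0128), and Krt84, singled out after its value was seen, had a positive estimate of 2.52 that did not pass (edgeR adjusted p = 0.0627).

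**Figure D5:**
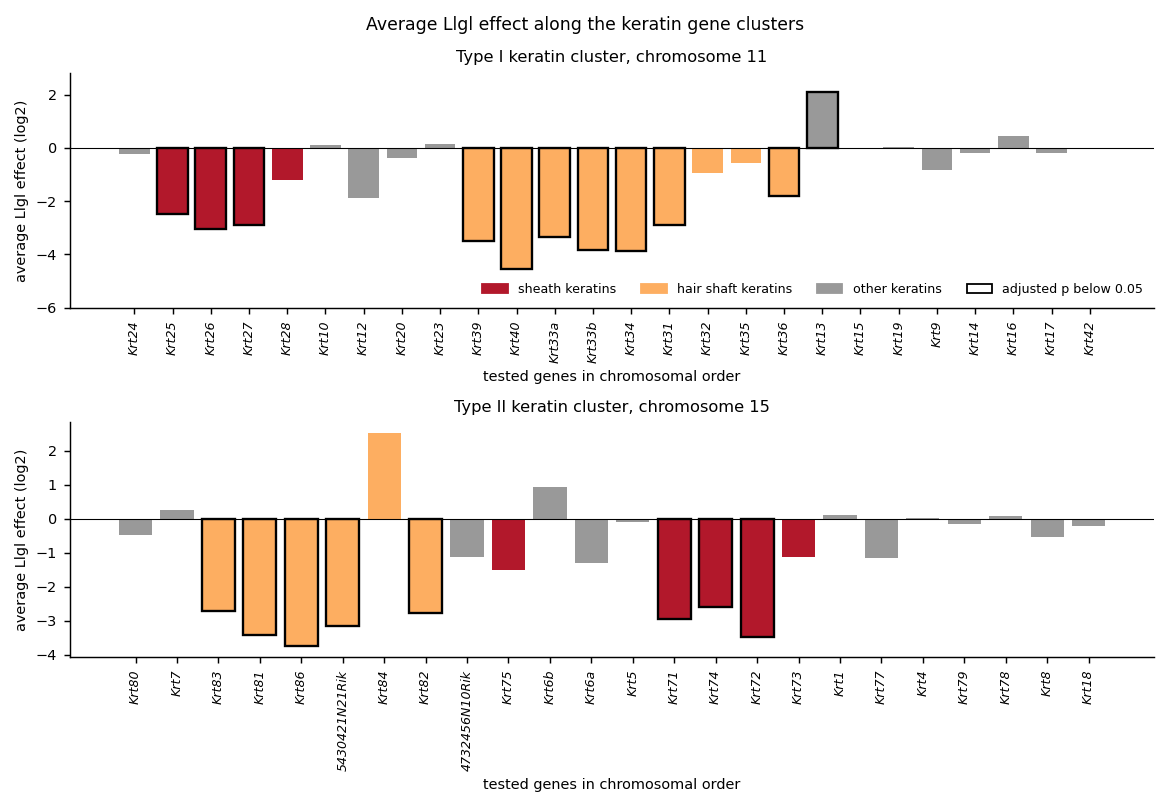
Average Llgl effect (log2) of each tested keratin gene in chromosomal order, in the type I cluster above and the type II cluster below, with colours for gene class and an outline for an adjusted p below 0.05; clone names are the count table's own symbols. Sheath genes run from -3.46 to -1.11, and outlined bars below 0 are all sheath or shaft genes.

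Markers of other tissue components also differed between the genotypes. The fibroblast list (9 genes, 8 tested) summed to 303 to 402 CPM in Llgl cKO Trp53 het and 254 to 344 CPM in Llgl cKO, against 123 to 264 CPM in Trp53 het and 119 to 270.2 CPM in control. Its highest sums outside the Llgl cKO genotypes were those of the libraries labelled Trp53 het 3 and control 3, in which the sheath keratins were the lowest of their groups. In the average Llgl effect 1 of 8 rose, Fbln1, fibulin 1, at 0.53 (edgeR adjusted p = 0.0218), and Dcn, decorin, was at 1.67 (edgeR adjusted p = 0.0687). The list's median was -0.02, with 4 of 8 estimates below 0 and the lowest at -1.01. Dcn and Fbln1 made up most of the sum in Llgl cKO Trp53 het, with means of 186 and 141 CPM.

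The adipocyte list (6 genes, 2 tested) summed to 0.419 to 0.769 CPM in Llgl cKO Trp53 het, with Cidec at 0 counts, and 1.76 to 3.86 CPM in Llgl cKO, with Car3 at 0 counts, against 2.94 to 17.4 CPM in Trp53 het and 2.42 to 29.1 CPM in control. Both tested genes fell, Fabp4, which fell by 2.94 (edgeR adjusted p = 0.0245) and Retn, which fell by 3.83 (edgeR adjusted p = 0.0378). The T cell list (10 genes, 9 tested) summed to 9.82 to 22.1 CPM in Llgl cKO Trp53 het and 6.94 to 14.9 CPM in Llgl cKO, against 14.1 to 54.8 CPM in Trp53 het and 24.3 to 38.3 CPM in control, the last 2 with Gzmb at 0 counts. In that list 2 of 9 fell, Il2rb, which fell by 2.44 (edgeR adjusted p = 0.0228) and Cd3g, which fell by 2.32 (edgeR adjusted p = 0.0352). In the adipocyte and T cell lists the lowest sums outside the Llgl cKO genotypes were those of the libraries labelled Trp53 het 3 and control 3. The sheath keratins were also the lowest of their groups in these libraries. The part of fibroblast, adipocyte and T cell components in the lower sheath keratins was not tested.

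The remaining lists gave 0 calls in the average Llgl effect: 0 of 7 melanocyte, 0 of 3 dermal papilla, 0 of 1 muscle and 0 of 5 mitochondrial transcripts tested, while no endothelial gene passed the filter. Melanocyte markers summed to 317 to 491 CPM in Llgl cKO Trp53 het and 378 to 693 CPM in Llgl cKO, against 388 to 602 CPM in Trp53 het and 339.5 to 549 CPM in control. Dermal papilla, muscle and endothelial markers summed to at most 8.75, 6.70 and 1.69 CPM in any library. Mitochondrial transcripts summed to 10715 to 15195 CPM in Llgl cKO Trp53 het and 10245 to 12161 CPM in Llgl cKO. The sums were 10980 to 12149 CPM in Trp53 het, with mt-Atp6 at 0 counts, and 7503 to 11799 CPM in control, with mt-Co2 at 0 counts. They are no direct measure of RNA quality.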

How the data were processed

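Raw read counts per gene were deposited by the authors for 12 libraries, 1 per mouse by the stated design, with no normalization in the table. The submitters' processing notes name STAR, featureCounts 1.6.4, DESeq2 2.11.40.8 and GRCm38, and the labels name a stranded mRNA kit; annotation release and strand setting are not given in the sources used here. In R 4.3.3, edgeR 4.0.16 was run with TMM scaling, filterByExpr (minimum count 10) and a robust quasi-likelihood fit of 4 group means (8 residual degrees of freedom), with Benjamini-Hochberg adjustment over 14582 genes. It was tested on simulated counts. CPM uses TMM-scaled library sizes. Gene positions came from GENCODE vM21 (45143 of 46078 identifiers matched), promoters from RefSeq (GRCm38.p6).

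The members and the 15 gene lists (118 genes) were chosen with earlier results of these data known. Named genes were the 9 members, the 2 of each list with the smallest p in the average Llgl effect, and the 5 genes most like the members; others are marked in the text. Hair shaft keratins Krt85 and Krt87 were not matched by symbol, and Krt83 is used as the table assigns it. Same-numbered replicates of Trp53 het and control deviated together (r of 0.62, 0.21 and 0.82 across genes, each over 0.1), and a replicate block was run as an alternative. The block changed no call between these 2 groups. It raised the count of the 9 called to 9 in the average Llgl effect and in Llgl cKO Trp53 het against Trp53 het and control.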

Additional observations from a re-analysis of the deposited data

How the results depend on the processing

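The direction of all 9 estimates in the average Llgl effect, and of Llgl cKO Trp53 het against each other group, was below 0 under every alternative run; which genes passed was not stable. With median-of-ratios or upper-quartile scaling, or at least 1 CPM in 3 libraries, no call of the 9 changed in any comparison. With no low-count filter the counts of the 9 called were 1 (average Llgl effect), 0 (Llgl cKO Trp53 het minus Trp53 het) and 0 (minus control). With DESeq2 1.42.0 they were 8, 9 and 9 (1034, 722 and 644 of all genes, against 485, 198 and 182 in edgeR), and 4 for Llgl cKO Trp53 het minus Llgl cKO. With only the groups compared they were 2 for Llgl cKO Trp53 het minus Trp53 het and 0 minus control. With control 3 and Trp53 het 3 both left out they were 6, 6 and 8 (2334, 1088 and 1139 of all genes). Leaving out each library gave 0 to 9, 0 to 8 and 0 to 8, and 0 to 0 in the other 4 comparisons. Over all genes the first 3 ranges were 164 to 697, 24 to 322 and 25 to 351. Fits of fewer libraries also have fewer degrees of freedom, and the cause of these moves was not tested.

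With replicate number as a block the 3 counts were 9, 9 and 9 (664, 376 and 347 of all genes), and no other count of the 9 moved. The correlation of deviations was over 0.1 in every pair only between Trp53 het and control, where 5 of 6 samples correlated best with their own number; in Llgl cKO Trp53 het and Trp53 het 3 of 6 did, in Llgl cKO and control, with correlations of 0.12, 0.07 and 0.13, 6 of 6 did.

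For Trp53 het minus control, log2 estimates changed sign with no low-count filter (Krt75, 0.01), with the replicate block (Krt26 0.07, Krt27 0.01, Krt71 0.07, Krt75 0.05) and with control 3 and Trp53 het 3 both left out (Krt72 -0.10, Krt74 -0.11). Leaving out each library, they ranged from -0.56 to 0.26 (Krt25), -0.53 to 0.28 (Krt26), -0.60 to 0.46 (Krt27), -0.50 to 0.36 (Krt71), -0.45 to 0.41 (Krt72), -0.32 to 0.07 (Krt73), -0.40 to 0.38 (Krt74) and -0.29 to 0.21 (Krt75). For Llgl cKO minus control they ranged from -0.92 to 0.11 (Krt28), -0.78 to 0.25 (Krt73) and -1.28 to 0.02 (Krt75). Counts were lowest in Llgl cKO Trp53 het for Krt74 (8, 12 and 5) and Krt72 (4 and 8 in libraries 2 and 3); counting error and variation between mice were not separated.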
